A study of Mus musculus with 30 samples.

Results

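Tendon transcription factors and genes of the fibrous matrix were followed in cultures of mouse limb mesenchyme grown with and without BMP4. The 10 genes were Scx, Mkx, Tnmd, Col12a1, Col14a1, Postn, Tnc, Cthrc1, Sparcl1 and Edil3. They were named as tendon factors and as proteins of fibrous connective tissue. No threshold on a measured value entered the choice, but it was made with earlier results of these data known. The array carried 22 probe sets for them among 45101, and 16 of the 22 passed the filter on dim signals. Each gene had at least 1 probe set that passed, and its brightest was used, so 10 of 10 genes were among the 15136 genes tested.

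Tendons and the sheets of connective tissue around cartilage and muscle arise in the limb bud from the same loose mesenchyme that forms cartilage. Scx, a basic helix-loop-helix factor, marks the tendon progenitors, Mkx is a homeobox factor that supports tendon collagen, and Tnmd is a membrane protein of more mature tendon cells. In the limb, TGF-beta and FGF signals are known to promote tendon progenitors, and BMP signals are known to promote cartilage and to limit Scx. Col12a1 and Col14a1 encode collagens that sit on the surface of fibrils, and the other 5 genes encode secreted proteins that bind the matrix or cell surface.

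The cells came from limb buds of CD-1 mice at E10.5. The early population was taken from the distal part of the hindlimb bud, the intermediate population from the distal part of the forelimb bud, and the late population from the proximal part of the forelimb bud. Single-cell suspensions were plated at high density in medium with 10% serum, and BMP4, a ligand of the bone morphogenetic protein family, was added at 20 ng/ml at the start of culture or left out. Each population was sampled as control at days 0, 1 and 2 and with BMP4 at days 1 and 2, which gives 15 groups of 2 arrays. Those 2 arrays are biological replicates per the labels. RNA came from cultures of about 280 embryos, so each array averages many animals, and it was labelled without an amplification step. The labels name no mutation or transgene. The protocol also mentions cultures of stage E11.5, and no array was labelled with that stage.

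All levels below are log2(signal + 16) of the deposited intensity, differences are on the same scale with the standard error of the fit, and n is 2 arrays per group. Array medians lay between 33.9 and 46.4, and replicates correlated with r from 0.9701 to 0.9838 over genes, which are not independent. The number of arrays limits the precision. With 2 arrays on each side, groups often do not overlap even where nothing differs. No share of all genes without overlap is given, so statements on overlap below only describe the arrays. Of 5 markers of limb mesenchyme, Prrx1 lay between 10.47 and 11.37 and Pdgfra between 10.28 and 11.18, while Prrx2 (8.35 to 10.90), Twist1 (8.27 to 10.77) and Msx1 (6.67 to 10.53) varied more. The latter 3 fell on the first day in each control population, also without the arrays doubted below, and Msx1 and Prrx2 were higher with BMP4 on average at day 1, by 1.23 ± 0.18 (adjusted p = 0.000269) and 1.24 ± 0.13 (adjusted p = 6.61e-06) in limma. The part of these shifts in the results was not tested. Limb identity genes went against the labels of the replicate 2 arrays of day 0. The hindlimb factor Pitx1 was 5.90 and the forelimb factor Tbx5 8.50 on the array labelled early replicate 2, and they were 9.43 and 4.68 on the array labelled intermediate replicate 2. Early arrays of days 1 and 2 held Pitx1 from 9.37 to 9.95, and intermediate ones from 4.75 to 6.28. The proximal factor Meis2 was 7.53 on the array labelled late replicate 2, below the 9.37 to 10.45 of later late arrays. It was 9.86 on early replicate 2 and 9.73 on intermediate replicate 2, while later intermediate arrays held 7.39 to 8.58. By these 3 genes the arrays labelled early, intermediate and late replicate 2 read like later late, early and intermediate arrays, in that order. The labels were kept. Changes from day 0 to day 1 are therefore also given without these 3 arrays. The 15 groups share their error in 1 fit, so these arrays also enter the tests of the other comparisons, with BMP4 among them.

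Promoter sequences were at hand for 3 of the 10 genes, from RefSeq on build GRCm38.p6. They are shown because Postn and Tnc rose in the same cultures while Tnmd rose a day later. Each run is the 150 bases before the gene's start, and capitals mark CANNTG, the E-box to which helix-loop-helix factors such as Scx bind, searched on both strands (the motif reads the same on each).
Postn, chr3:54359117-54359266, plus strand: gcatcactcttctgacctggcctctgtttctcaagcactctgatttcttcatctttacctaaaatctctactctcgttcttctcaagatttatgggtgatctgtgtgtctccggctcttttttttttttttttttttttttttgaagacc
Tnc, chr4:64047016-64047165, minus strand: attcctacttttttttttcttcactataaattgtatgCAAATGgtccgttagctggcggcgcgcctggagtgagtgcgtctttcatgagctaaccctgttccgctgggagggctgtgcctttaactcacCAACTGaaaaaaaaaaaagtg
Tnmd, chrX:133850858-133851007, plus strand: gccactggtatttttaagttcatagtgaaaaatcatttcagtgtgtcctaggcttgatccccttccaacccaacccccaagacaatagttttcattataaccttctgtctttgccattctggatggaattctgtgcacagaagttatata
The Tnc window held 2 matches, and the Postn and Tnmd windows 0. Of 32851 promoter windows of the same length, 47.7% held at least 1 match, so these letters are common and describe the windows only.

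**Figure D1:**
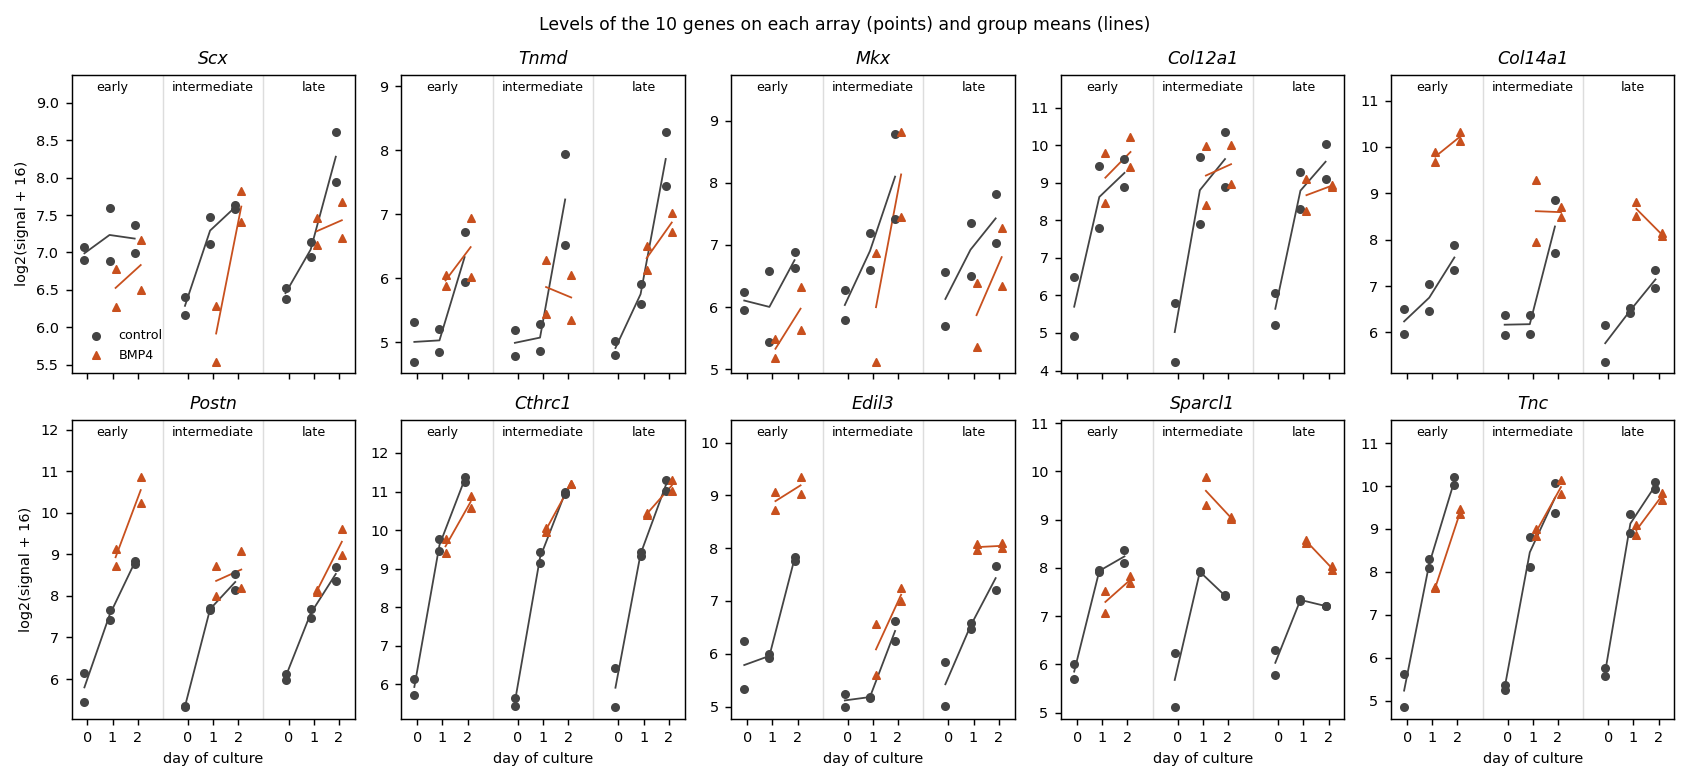
Level of each gene as log2(signal + 16) against day of culture, for the early, intermediate and late populations; circles are control arrays, triangles BMP4 arrays, and lines join group means. In control cultures Cthrc1 and Tnc rose in each population on the first day, and with BMP4 at day 1 every Col14a1 array lay above every control array of its population.

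The first question was how the genes moved in control culture. Between day 0 and day 1, 5 of 10 rose in the early population (against 9.51% of all genes called higher), 6 of 10 in the intermediate (13.4%) and 6 of 10 in the late (11.9%). Called means a limma adjusted p under 0.05 over all 15136 genes. Col12a1, Postn, Cthrc1, Sparcl1 and Tnc rose in all 3 populations, Scx in the intermediate and Edil3 in the late. The median difference of the 10 genes, beside that of all genes, was 1.13 against -0.0028, 1.62 against -0.02 and 1.20 against 0.03 in the same order. Without the 3 doubted arrays of day 0 the counts were 5, 5 and 4, and the calls of Scx, of Edil3 and of Col12a1 in the late population were lost.

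Between day 1 and day 2, 4 of 10 rose in the early population (1.06% of all genes), 4 of 10 in the intermediate (0.714%) and 2 of 10 in the late (0.674%). Cthrc1 was called in each population, Tnc in the early and intermediate, Tnmd in the intermediate and late, Postn and Edil3 in the early, and Col14a1 in the intermediate. The medians were 1.07 against 0.01, 1.23 against 0.01 and 0.90 against -0.01. No member was called lower by limma in any of the 6 steps between days, and 0 were lower at an unadjusted p under 0.05.

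**Figure D2:**
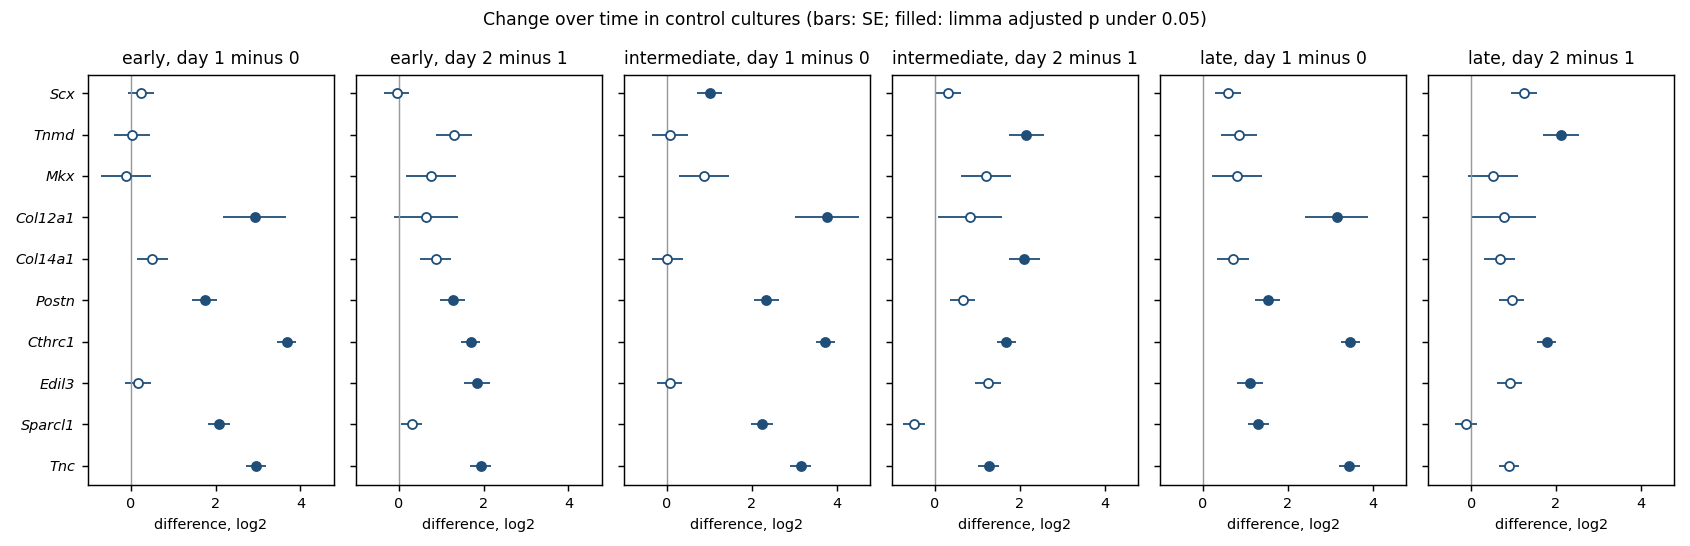
Difference between consecutive days in control cultures for the 10 genes, one panel per population and day step, in log2 units; bars are standard errors and filled points passed limma at an adjusted p under 0.05. Cthrc1 is filled in all 6 panels, and Mkx in none.

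The second question was what BMP4 did at the same day. At day 1, 3 of 10 genes were higher with BMP4 in the early population (1.53% of all genes called higher), 2 of 10 in the intermediate (0.172%) and 1 of 10 in the late (0.0661%). At day 2 the counts were 3 of 10 (2.4%), 1 of 10 (0.00661%) and 0 of 10 (0.00661%). In that last comparison limma called none of the 10, and 5 had an unadjusted p under 0.05, beside 712 of all 15136 genes. Averaged over the 3 populations, 5 of 10 were higher at day 1 (3.6%) and 1 of 10, Scx, was lower (2.7%), and 4 of 10 were higher at day 2 (1.18%). Sparcl1 was among the higher genes on both days, although its early difference lay below 0 each time. A call on the average is therefore not a response shared by all 3 populations. The medians of the 10 genes and of all genes were 0.66 against 0.01 at day 1 and -0.09 against 0.01 at day 2 in the averaged comparison. Col14a1, Postn, Edil3 and Sparcl1 made up the calls within populations. With the probe sets used, no tendon factor was called within one. A dimmer Scx probe set was called lower by limma in the early population at day 1 (-1.38 ± 0.26, adjusted p = 0.00505).

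**Figure D3:**
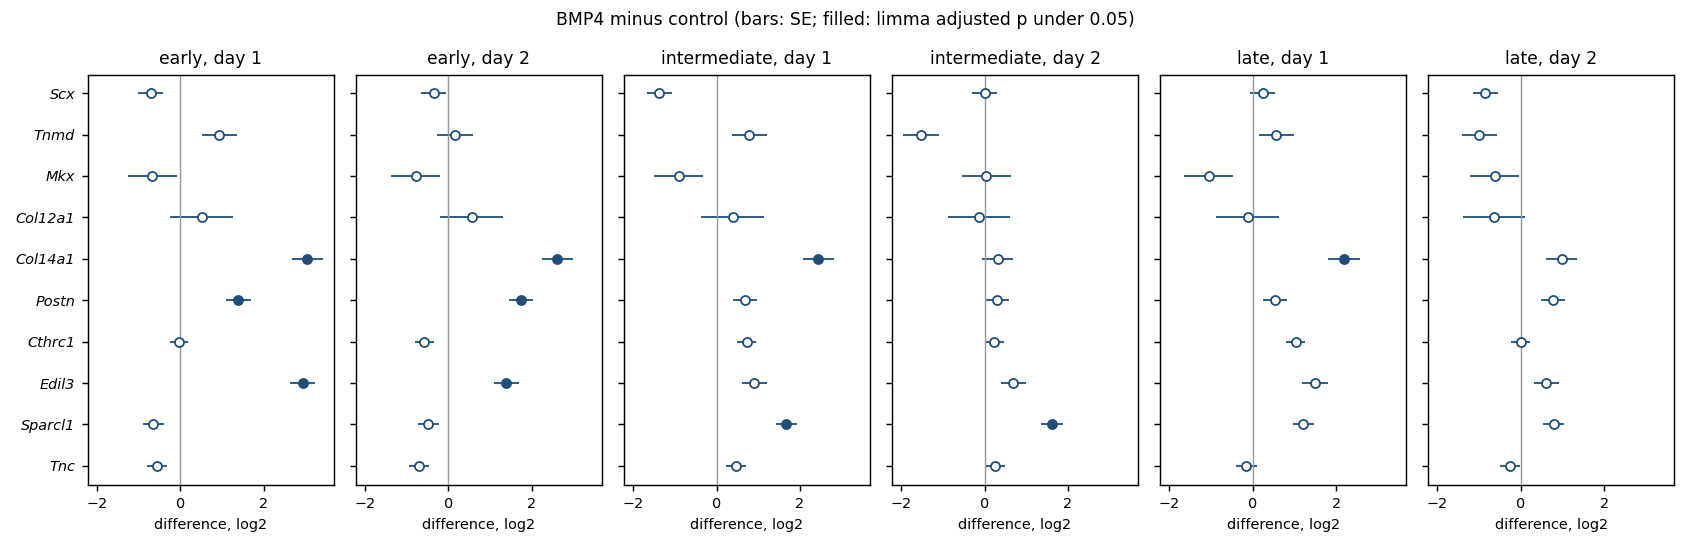
BMP4 minus control for the 10 genes in each population and day, in log2 units; bars are standard errors and filled points passed limma at an adjusted p under 0.05. Col14a1 is filled in 4 panels, and Sparcl1 lies right of 0 in the intermediate and late panels and left of 0 in the early ones.

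The summed signal of macrophage markers was higher with BMP4 in the early and intermediate populations. Their 7 genes summed to a signal of 436 to 489 in early control arrays at day 1 and 774 to 941 with BMP4, and to 568 to 621 against 949 to 1102 in the intermediate population. In the late population the sums were 353 to 391 and 348 to 408. At day 2 the early sums were 351 to 446 and 1046 to 1112, and the intermediate ones 404 to 487 and 813 to 962. The late sums at day 2 were 285 to 382 in control and 300 to 373 with BMP4. In the early population at day 2, 6 of 7 markers were called higher (2.4% of all genes), among them Tyrobp and Csf1r. C1qa lay under the 40th percentile of its array on 26 of 30 arrays, while Cd68, Csf1r and Tyrobp were above it on all 30. The part of these cells in the results below was not tested. The arrays measure whole cultures, so fewer cells of a type and less RNA per cell cannot be told apart.

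Scx was called in 1 of the 6 steps between days, and it was lower with BMP4 at day 1 when the populations were averaged. Control levels in the intermediate population were 6.40 and 6.17 at day 0, 7.11 and 7.47 at day 1 and 7.63 and 7.58 at day 2. Both day 1 arrays lay above both day 0 arrays, a rise of 1.01 ± 0.30 (adjusted p = 0.0199). The call was lost without replicate 2 of day 0 (0.89, adjusted p = 0.138) and without replicate 2 of day 1 (0.83, adjusted p = 0.149).

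The late population held the highest Scx group mean, at day 2 in control culture, with arrays of 8.62 and 7.94 against 7.14 and 6.94 at day 1. The groups did not overlap, and the difference of 1.24 ± 0.30 (adjusted p = 0.0531) missed the threshold. In the early population the day 1 arrays spread across those of day 0 and day 2, with a difference of 0.24 ± 0.30 for the first day and -0.05 ± 0.30 for the second.

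With BMP4 the intermediate day 1 arrays read 6.29 and 5.54 for Scx against 7.11 and 7.47 in control. They lay below both controls, at a mean signal of 142 in control and 46.4 with BMP4, a ratio of 0.327, and the difference of -1.38 ± 0.30 (adjusted p = 0.0611) did not pass. Early day 1 arrays read 6.78 and 6.27 against 6.88 and 7.59, also without overlap (-0.71 ± 0.30, adjusted p = 0.259), while the late population gave 0.25 ± 0.30 (adjusted p = 0.943). The average over populations was -0.61 ± 0.17 (adjusted p = 0.038) at day 1, which passed, and -0.40 ± 0.17 (adjusted p = 0.277) at day 2, which did not.

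That averaged call depended on the setting. It was lost under 11 of 21 other settings, with an adjusted p from 0.00229 to 0.154 over all of them. Among these were 7 of the 12 single arrays when left out: replicate 2 of both early day 1 groups, of both intermediate groups and of the late BMP4 group, and each late control array. It was also lost without the 3 doubted arrays (adjusted p = 0.0563), with only the arrays compared (adjusted p = 0.0911), with a pseudocount of 64 (adjusted p = 0.0562) and with no filter (adjusted p = 0.0521). The direction was lower in each setting.

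A second, dimmer probe set of Scx shared the sign of the BMP4 difference in 4 of the 6 populations and days and in both averages. It read -0.38 ± 0.26 (adjusted p = 0.876) in the late population at day 1 and -0.41 ± 0.26 (adjusted p = 1) in the intermediate at day 2, where the one used lay above 0. The brighter one is of the kind whose probes can match related transcripts, so the dimmer one was set beside it, and they correlated with r = 0.782 over the 30 arrays. Its BMP4 difference was -1.38 ± 0.26 (adjusted p = 0.00505) in the early population at day 1 and -0.87 ± 0.15 (adjusted p = 0.0014) on average, and both passed. Its first-day difference in the intermediate population, 0.62 ± 0.26 (adjusted p = 0.106), did not pass, and that in the late population, 0.77 ± 0.26 (adjusted p = 0.0461), did.

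Mkx was not called by limma in any of the 26 comparisons of the main fit, which had no replicate block. It had an unadjusted p under 0.05 in 2. Its levels in the intermediate control cultures were 6.27 and 5.80 at day 0, 7.20 and 6.60 at day 1 and 8.79 and 7.41 at day 2. The replicates at day 2 stood far apart, and the SD within groups had a median of 0.60, the second largest of the 10 genes. In this population the differences were 0.87 ± 0.59 (adjusted p = 0.331) for the first day and 1.20 ± 0.59 (adjusted p = 0.579) for the second.

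With BMP4, both Mkx arrays lay below both controls in 2 of the 6 populations and days, and the groups overlapped in 4. At day 1 the arrays read 5.48 and 5.17 with BMP4 against 6.57 and 5.43 in the early population and 6.39 and 5.35 against 7.35 and 6.50 in the late. The late BMP4 arrays lay below both controls, and the early groups overlapped. The average at day 1 was -0.88 ± 0.34 (adjusted p = 0.14) and at day 2 -0.46 ± 0.34 (adjusted p = 0.585). Mkx was higher on replicate 1 in 14 of 15 groups, and this gap is part of its spread within groups. With a replicate block, an alternative to the main fit, the day 1 average passed in limma (adjusted p = 0.00496).

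Tnmd appeared late. In the late population its control levels were 5.03 and 4.80 at day 0, 5.91 and 5.59 at day 1 and 8.29 and 7.43 at day 2. Only the day 2 arrays stood well above the dim range, in which the 40th percentile of an array lay between 5.18 and 5.54. The second day added 2.11 ± 0.42 (adjusted p = 0.0195) in the late and 2.16 ± 0.42 (adjusted p = 0.0134) in the intermediate population, whose arrays went from 5.29 and 4.86 to 7.93 and 6.53.

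The early population gave 1.30 ± 0.42 (adjusted p = 0.187) for Tnmd over the second day, which did not pass. The late call was lost without any 1 of its 4 arrays, at adjusted p from 0.0520 to 0.237. The intermediate call was lost without replicate 1 of day 1 (2.37, adjusted p = 0.0616), replicate 2 of day 1 (1.94, adjusted p = 0.153) and replicate 1 of day 2 (1.45, adjusted p = 0.291). With only the arrays compared it was also lost (adjusted p = 0.209).

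BMP4 gave values of both signs for Tnmd. Limma called none of the 6, and 3 had an unadjusted p under 0.05. At day 1 the differences were 0.93 ± 0.42, 0.79 ± 0.42 and 0.56 ± 0.42 in the early, intermediate and late populations. At day 2 they were 0.16 ± 0.42, -1.53 ± 0.42 and -0.99 ± 0.42. At day 1 the BMP4 arrays lay above both controls in each population. They read 5.87 and 6.06 against 4.85 and 5.21 in the early population. Those of the intermediate read 5.44 and 6.28 against 4.86 and 5.29, and of the late 6.12 and 6.50 against 5.59 and 5.91. The day 2 BMP4 arrays, 5.35 and 6.05 in the intermediate and 6.72 and 7.02 in the late population, lay below both controls, and the early groups overlapped. The averages were 0.76 ± 0.24 (adjusted p = 0.069) at day 1 and -0.79 ± 0.24 (adjusted p = 0.101) at day 2.

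Among the fibril-surface collagens, Col12a1 rose on the first day of culture. Control arrays went from 4.92 and 6.48 to 7.80 and 9.44 in the early population, from 4.24 and 5.81 to 7.91 and 9.69 in the intermediate and from 6.07 and 5.22 to 8.30 and 9.27 in the late. Day 1 lay above day 0 in every population. The rises were 2.92 ± 0.75 (adjusted p = 0.0101), 3.78 ± 0.75 (adjusted p = 0.00102) and 3.14 ± 0.75 (adjusted p = 0.00509), and without the doubted arrays 3.70, 4.56 and 2.72 (adjusted p = 0.00987, 0.00213 and 0.0552).

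The replicates of Col12a1 were far apart, with a median SD within groups of 0.73, the largest of the 10 genes. The early call was lost without replicate 1 of day 0 (2.14, adjusted p = 0.148) or replicate 2 of day 1 (2.10, adjusted p = 0.161). The late call was lost without replicate 2 of day 0 (2.72, adjusted p = 0.0695) or replicate 2 of day 1 (2.66, adjusted p = 0.0732). A dimmer probe set gave 1.42 ± 0.51 (adjusted p = 0.0719), 2.39 ± 0.51 (adjusted p = 0.00218) and 1.77 ± 0.51 (adjusted p = 0.0206), of which the intermediate and late values passed. With BMP4 the differences ran from -0.64 in the late population at day 2 to 0.56 in the early at day 2. Limma called none of the 6, and 0 had an unadjusted p under 0.05.

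Col14a1 was higher with BMP4 in each population at day 1. In the early population the arrays read 6.46 and 7.04 in control and 9.90 and 9.68 with BMP4. In the intermediate they read 5.97 and 6.38 in control and 7.95 and 9.28 with BMP4, and in the late 6.42 and 6.53 in control and 8.50 and 8.82 with BMP4. Every BMP4 array lay above every control array of its population, and the early mean signal was 93.8 in control and 872 with BMP4, a ratio of 9.30.

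The Col14a1 differences at day 1 were 3.04 ± 0.37 (adjusted p = 9.18e-05) in the early, 2.44 ± 0.37 (adjusted p = 0.00437) in the intermediate and 2.19 ± 0.37 (adjusted p = 0.0219) in the late population. The early call held with each array left out, with values from 2.75 to 3.33. The intermediate call was lost without replicate 1 of control (2.24, adjusted p = 0.0786) or replicate 2 of BMP4 (1.77, adjusted p = 0.123), and with only the arrays compared (adjusted p = 0.443). The late call was lost without any 1 of its 4 arrays, at adjusted p from 0.0725 to 0.304 and differences from 2.03 to 2.35.

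At day 2 Col14a1 was called in the early population. Early arrays were 7.35 and 7.88 in control and 10.12 and 10.33 with BMP4, a difference of 2.61 ± 0.37 (adjusted p = 0.00049). Intermediate arrays were 8.85 and 7.72 in control and 8.71 and 8.48 with BMP4, which overlapped (0.31 ± 0.37, adjusted p = 1). Late arrays were 7.34 and 6.95 in control and 8.09 and 8.15 with BMP4, which did not overlap, and the difference did not pass (0.98 ± 0.37, adjusted p = 0.986). The response of the early minus that of the intermediate population was 2.30 ± 0.53 (adjusted p = 0.0784), so a difference between them was not shown.

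The intermediate control had itself risen on the second day, by 2.11 ± 0.37 (adjusted p = 0.00642), from 5.97 and 6.38 to 8.85 and 7.72. The call on this rise was lost without replicate 1 of day 1 (1.90, adjusted p = 0.102) or replicate 1 of day 2 (1.54, adjusted p = 0.18), and with only the arrays compared (adjusted p = 0.135). A dimmer Col14a1 probe set passed in the same 4 BMP4 comparisons, with differences of 2.16 ± 0.33 (adjusted p = 0.00106), 2.28 ± 0.33 (adjusted p = 0.000587), 2.56 ± 0.33 (adjusted p = 0.00223) and 2.38 ± 0.33 (adjusted p = 0.00273) for early day 1, early day 2, intermediate day 1 and late day 1. A further probe set, above the 40th percentile on 3 of 30 arrays, passed in 1 of the 4, early day 2 (2.53 ± 0.37, adjusted p = 0.000593).

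Postn encodes periostin, a secreted protein of ligaments, periosteum and healing tissue that binds collagen and integrins. It rose on the first day from 5.46 and 6.14 to 7.43 and 7.65 in the early, from 5.35 and 5.32 to 7.71 and 7.66 in the intermediate and from 5.98 and 6.11 to 7.70 and 7.46 in the late population. The groups did not overlap, and the rises were 1.74 ± 0.29 (adjusted p = 0.000326), 2.35 ± 0.29 (adjusted p = 9.99e-06) and 1.53 ± 0.29 (adjusted p = 0.000957). Without the doubted arrays they were 2.08, 2.33 and 1.59, and all 3 passed. On the second day the early population added 1.27 ± 0.29 (adjusted p = 0.0358), a call lost without any 1 of its 4 arrays (adjusted p from 0.150 to 0.268) and with a pseudocount of 1 (adjusted p = 0.0515).

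With BMP4 Postn was higher in the early population. At day 1 the arrays read 8.73 and 9.14 against 7.43 and 7.65, and at day 2 10.24 and 10.86 against 8.85 and 8.76, with no overlap on either day. The differences were 1.39 ± 0.29 (adjusted p = 0.0112) and 1.74 ± 0.29 (adjusted p = 0.00174), the latter a mean signal of 432 in control and 1519 with BMP4, a ratio of 3.52. Day 1 was lost without control replicate 1 (1.28, adjusted p = 0.143) or BMP4 replicate 2 (1.19, adjusted p = 0.142), and day 2 without BMP4 replicate 2 (1.43, adjusted p = 0.0726).

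The other populations gave smaller Postn values with BMP4, of 0.68 ± 0.29 and 0.30 ± 0.29 in the intermediate and 0.53 ± 0.29 and 0.78 ± 0.29 in the late at days 1 and 2, none called. Averaged over populations the differences were 0.87 ± 0.17 (adjusted p = 0.00342) at day 1 and 0.94 ± 0.17 (adjusted p = 0.00526) at day 2. These calls held with each of the 12 arrays left out in turn. Both BMP4 arrays lay above both controls in 5 of the 6 populations and days.

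Tnc encodes tenascin-C, an adhesion-modulating protein of tendons and of the layer around cartilage. It rose from 4.85 and 5.62 to 8.08 and 8.29, from 5.25 and 5.36 to 8.11 and 8.80 and from 5.58 and 5.77 to 8.91 and 9.34 on the first day in the early, intermediate and late populations. The rises of 2.95 ± 0.24 (adjusted p = 1.44e-07), 3.15 ± 0.24 (adjusted p = 3.93e-08) and 3.45 ± 0.24 (adjusted p = 1.85e-08) held with each array left out, and were 3.34, 3.21 and 3.55 without the doubted arrays. The second day added 1.93 ± 0.24 (adjusted p = 0.000207) in the early and 1.27 ± 0.24 (adjusted p = 0.012) in the intermediate population, and 0.89 ± 0.24 (adjusted p = 0.102) in the late, which did not pass. The intermediate call was lost without replicate 1 of day 1 (0.92, adjusted p = 0.249) or replicate 2 of day 2 (0.92, adjusted p = 0.215), and with only the arrays compared (adjusted p = 0.287).

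In the main fit BMP4 was not called for Tnc by limma in any of the 6 population and day comparisons, of which 2 had an unadjusted p under 0.05. In the early population its arrays with BMP4, 7.63 and 7.64 at day 1 and 9.36 and 9.46 at day 2, lay below both controls, 8.08 and 8.29 at day 1 and 10.03 and 10.21 at day 2. The differences were -0.55 ± 0.24 (adjusted p = 0.284) and -0.71 ± 0.24 (adjusted p = 0.0928). With a replicate block, an alternative to the main fit, the early day 2 difference passed in limma (adjusted p = 0.0105). The averages over populations were -0.08 ± 0.14 and -0.24 ± 0.14.

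Cthrc1, a secreted protein with a short collagen-like stretch, rose on both days in each population. Control arrays read 5.73 and 6.13, then 9.78 and 9.45, then 11.38 and 11.25 in the early population at days 0, 1 and 2. The late population read 6.41 and 5.41, then 9.33 and 9.43, then 11.01 and 11.31. The 3 days did not overlap in either, and the first-day rises were 3.68 ± 0.23 (adjusted p = 1.64e-09), 3.74 ± 0.23 (adjusted p = 1.21e-09) and 3.47 ± 0.23 (adjusted p = 5.05e-09) in the early, intermediate and late populations.

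Second-day rises of Cthrc1 were 1.70 ± 0.23 (adjusted p = 0.000324), 1.68 ± 0.23 (adjusted p = 0.000378) and 1.78 ± 0.23 (adjusted p = 0.000318) in the same order. All 6 calls held with each array left out, and without the doubted arrays the first-day rises were 3.88, 3.83 and 2.97. With BMP4 at day 1 the late Cthrc1 arrays read 10.44 and 10.40 against 9.33 and 9.43, a difference of 1.03 ± 0.23 (adjusted p = 0.0703) that did not pass, and the early arrays 9.40 and 9.77 against 9.78 and 9.45, which overlapped. Intermediate BMP4 arrays lay above both controls on each day, with differences of 0.73 ± 0.23 (adjusted p = 0.287) and 0.24 ± 0.23 (adjusted p = 1) that did not pass. At day 2 the early BMP4 arrays, 10.58 and 10.88, lay below both controls, 11.38 and 11.25 (-0.58 ± 0.23, adjusted p = 0.143), and the late groups overlapped. The average over populations was 0.58 ± 0.13 (adjusted p = 0.00986) at day 1 and -0.11 ± 0.13 (adjusted p = 0.755) at day 2.

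Sparcl1 encodes a matrix protein of the SPARC family that modulates cell adhesion, and it was the member whose BMP4 response passed a test of the difference between populations. On the first day in control it rose from 5.69 and 6.01 to 7.92 and 7.95 in the early, from 6.24 and 5.12 to 7.91 and 7.93 in the intermediate and from 6.29 and 5.77 to 7.36 and 7.31 in the late population. The rises were 2.09 ± 0.26 (adjusted p = 1.28e-05), 2.24 ± 0.26 (adjusted p = 3.12e-06) and 1.30 ± 0.26 (adjusted p = 0.00109), and 2.25, 1.68 and 1.05 without the doubted arrays, all 3 called.

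In the intermediate population Sparcl1 read 9.88 and 9.31 with BMP4 at day 1 and 9.02 and 9.05 at day 2, against 7.91 and 7.93 at day 1 and 7.42 and 7.43 at day 2 in control. The BMP4 arrays lay above the controls on both days, with differences of 1.68 ± 0.26 (adjusted p = 0.00437) and 1.61 ± 0.26 (adjusted p = 0.0488). Late BMP4 arrays, 8.58 and 8.52 at day 1, also lay above their controls (1.21 ± 0.26, adjusted p = 0.0603) without passing. Early BMP4 arrays read 7.51 and 7.07 at day 1 and 7.82 and 7.69 at day 2, below both controls each time. Those differences, -0.64 ± 0.26 (adjusted p = 0.219) and -0.48 ± 0.26 (adjusted p = 0.297), did not pass.

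The difference between the early and the intermediate response of Sparcl1 was tested directly. It was -2.32 ± 0.36 (adjusted p = 0.00957) at day 1, where 1 of 10 members was called against 0.0264% of all genes, and -2.09 ± 0.36 (adjusted p = 0.022) at day 2, again 1 of 10 against 0.271%. Early minus late gave -1.86 ± 0.36 (adjusted p = 0.116) and -1.27 ± 0.36 (adjusted p = 0.192), and neither passed. The other tests of this kind called 0 of 10 members with limma: early minus late at day 1 (0.0264% of all genes, with 4 members at an unadjusted p under 0.05) and day 2 (0.211%, 3 members), and intermediate minus late at day 1 (0%, 1 member) and day 2 (0.00661%, 1 member). Of all 15136 genes, 820, 1614, 424 and 589 had an unadjusted p under 0.05 in limma in these tests, in the same order. Such a test sets 4 groups of 2 arrays against each other and has a wider error than a single comparison.

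Several Sparcl1 calls were lost in fits with 1 array left out, in which 1 group kept a single array. The intermediate call at day 1 was lost without control replicate 2 (1.69, adjusted p = 0.0549) and with only the arrays compared (adjusted p = 0.372). At day 2 it was lost without any 1 of its 4 arrays, at adjusted p from 0.161 to 0.421 and differences from 1.60 to 1.63, with a pseudocount of 1 (adjusted p = 0.244) and with only the arrays compared (adjusted p = 0.236). The early minus intermediate value at day 1 ranged from -2.61 to -2.04 with 1 array left out. It lost its call without replicate 1 of either intermediate group, early control replicate 1 or early BMP4 replicate 2, at adjusted p from 0.0751 to 0.125. At day 2 it lost it without 7 of its 8 arrays, the exception being early BMP4 replicate 1, at adjusted p from 0.0501 to 0.150. With a pseudocount of 1 both were lost (adjusted p = 0.207 at day 1 and adjusted p = 0.0675 at day 2), and the day 1 value also with only the arrays compared (adjusted p = 0.551). The average over populations was 0.75 ± 0.15 (adjusted p = 0.00353) at day 1 and 0.64 ± 0.15 (adjusted p = 0.0241) at day 2, and the latter was lost without 9 of the 12 arrays (adjusted p from 0.0504 to 0.0882), the exceptions being late BMP4 replicate 1, early control replicate 2 and early BMP4 replicate 1.

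Edil3 encodes a secreted protein with EGF-like and discoidin domains that binds integrins. Both BMP4 arrays lay above both controls in 6 of the 6 populations and days. The early day 1 arrays read 5.99 and 5.93 in control and 9.07 and 8.71 with BMP4, a mean signal of 46.2 in control and 463 with BMP4, a ratio of 10.0. The difference of 2.93 ± 0.30 (adjusted p = 1.50e-05) held with each array left out.

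At day 2 the early Edil3 arrays read 7.77 and 7.84 in control and 9.03 and 9.35 with BMP4, a difference of 1.39 ± 0.30 (adjusted p = 0.00993). That call was lost without control replicate 1 (1.35, adjusted p = 0.101), control replicate 2 (1.42, adjusted p = 0.0519) or BMP4 replicate 2 (1.23, adjusted p = 0.155). The late day 1 arrays, 6.46 and 6.59 in control and 7.97 and 8.07 with BMP4, did not overlap, and the difference of 1.49 ± 0.30 (adjusted p = 0.052) did not pass. The early minus intermediate response at day 1 was 2.03 ± 0.43 (adjusted p = 0.25), so a difference was not shown. The averages were 1.78 ± 0.17 (adjusted p = 2.74e-06) and 0.90 ± 0.17 (adjusted p = 0.00901), which held with each array left out.

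A dimmer Edil3 probe set gave 2.34 ± 0.31 (adjusted p = 0.000219) and 1.43 ± 0.31 (adjusted p = 0.0119) with BMP4 in the early population at days 1 and 2. A further one, above the 40th percentile on 3 of 30 arrays, had r = 0.0089 with the one used and gave 0.30 ± 0.29 (adjusted p = 0.7) and 0.44 ± 0.29 (adjusted p = 0.446) there, and values below 0 in the late population on both days, none called. In control, Edil3 rose on the second day in the early population by 1.84 ± 0.30 (adjusted p = 0.00235), from 5.99 and 5.93 to 7.77 and 7.84. In the late population it rose on the first day by 1.10 ± 0.30 (adjusted p = 0.0129), a call lost without replicate 2 of day 0 (0.69, adjusted p = 0.236), replicate 2 of day 1 (1.04, adjusted p = 0.0871), with the mean of probe sets (0.53, adjusted p = 0.132) and with only the arrays compared (adjusted p = 0.0636).

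The control cultures of the 3 populations were then compared at the same day. At day 1, 0 of 10 members differed between early and late (0.476% of all genes called; 2 members at an unadjusted p under 0.05 in limma), 0 of 10 between early and intermediate (0.0529%; 1 member) and 1 of 10 between intermediate and late (0.667%). At day 2 the counts were 0 of 10 (0.41%; 3 members), 1 of 10 (0.377%) and 0 of 10 (0.72%; 3 members) in the same order. The single gene was Edil3 each time. It was lower in the intermediate than in the late population at day 1, at 5.19 and 5.17 against 6.46 and 6.59, a difference of -1.35 ± 0.30 (adjusted p = 0.0386). It was higher in the early than in the intermediate at day 2, at 7.77 and 7.84 against 6.23 and 6.63 (1.37 ± 0.30, adjusted p = 0.0499).

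Both Edil3 calls between populations sat close to the threshold. Each was lost without any 1 of its 4 arrays, at adjusted p from 0.117 to 0.274 for the first and from 0.103 to 0.512 for the second. The first was also lost with a pseudocount of 64 (adjusted p = 0.0701), and the second with a pseudocount of 1 (adjusted p = 0.16). Both were lost with no filter (adjusted p = 0.0567 and adjusted p = 0.0764), with the mean of probe sets (adjusted p = 0.0572 and adjusted p = 0.443) and with only the arrays compared (adjusted p = 0.0693 and adjusted p = 0.105). Scx, with -1.09 ± 0.30 (adjusted p = 0.16), and Tnmd, with -1.53 ± 0.42 (adjusted p = 0.17), had values below 0 for early against late at day 2 that did not pass.

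Group means were also ordered within each gene. Cthrc1 ran from 5.55 in the intermediate day 0 group to 11.31 in the early day 2 control, the widest range of the 10 genes at 5.76. Scx had the narrowest, 2.36, from 5.92 with BMP4 in the intermediate population at day 1 to 8.28 in the late day 2 control. Col12a1, Postn, Cthrc1, Edil3 and Sparcl1 were lowest in the intermediate day 0 group. Without the doubted arrays this held for the other 4, while Sparcl1 was lowest in the early day 0 group at 5.69. Col12a1, Col14a1, Postn and Edil3 were highest in early cultures with BMP4 at day 2. Of the 14 pairs of neighbours in each order, those closer than the gene's median SD within groups numbered 13 for Col12a1, 12 for Mkx, 11 for Scx and 9 for Tnmd. For Sparcl1, with a median SD of 0.050, they numbered 2, and for Edil3 and Tnc 5 each. The widest gap of Cthrc1, 3.35, separated the day 0 groups from all later ones.

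Likeness between members was described by Pearson's r over the 15 group means, which share the arrays, the days and the treatment, so it is a description with no test. Cthrc1 and Tnc had r = 0.978, and Col12a1 and Cthrc1 r = 0.962. Among the tendon factors Scx and Mkx had r = 0.70, and Scx and Tnmd r = 0.586. Scx and Col14a1 had r = -0.024, and Mkx and Edil3 r = -0.11, while Col14a1 and Edil3 had r = 0.84.

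**Figure D4:**
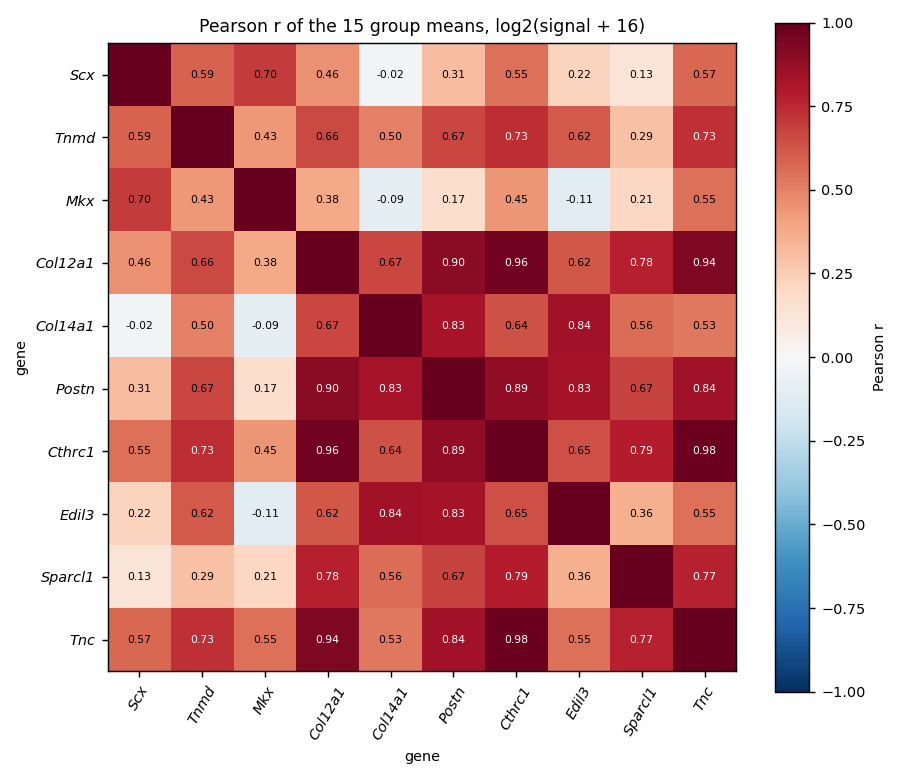
Pearson's r between the group means of each pair of the 10 genes over the 15 groups, from -1 (blue) to 1 (red). Cthrc1, Tnc and Col12a1 form a red block, with r = 0.978 for Cthrc1 and Tnc, and the Scx and Mkx rows are near 0 for Col14a1.

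Among the 5226 genes whose group means ranged over at least 1 log2 unit, those most like each member were named by the same r. For Tnmd they were Lum at 0.932 and Fmod at 0.924, both small proteoglycans of collagen fibrils, and Plpp5 at 0.921. For Scx they were Dagla at 0.854, Gas2 at 0.849 and Sorcs2 at 0.846, and for Mkx Angptl1 at 0.909, Col10a1 at 0.887 and Vstm2b at 0.884. For Col14a1 the nearest were Rgs5 at 0.965, Tgfb1 at 0.943 and Depdc7 at 0.942, and for Postn Fbxo25 and Lamb2 at 0.973 and Actg2 at 0.971. The nearest gene was Fuca1 for Col12a1 (0.989), Fxyd1 for Cthrc1 (0.994), Zfp354c for Tnc (0.984), Spock3 for Edil3 (0.929) and Sgms2 for Sparcl1 (0.936). Scx had the lowest best r of the 10.

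The signals known to act on tendon progenitors were read from a list of 15 genes, of which 14 were tested. On the first day in control 3, 6 and 3 of 14 rose and 1, 3 and 1 fell in the early, intermediate and late populations. Of all genes 9.51%, 13.4% and 11.9% were called higher and 5.99%, 7.62% and 6.93% lower. The list medians were 0.08, 0.16 and 0.25. Tgfb2, a TGF-beta ligand, rose by 2.91 ± 0.30, 3.74 ± 0.30 and 2.40 ± 0.30, and its receptor chain Tgfbr2 by 0.97 ± 0.17, 1.36 ± 0.17 and 1.24 ± 0.17. Spry2, a feedback inhibitor of FGF signalling, gave -0.49 ± 0.16 (adjusted p = 0.0483), -0.93 ± 0.16 (adjusted p = 0.000346) and -0.66 ± 0.16 (adjusted p = 0.00695). Without the doubted arrays 3, 5 and 3 of 14 rose and 1, 3 and 0 fell, Tgfb2 and Tgfbr2 passed in all 3 populations, and Spry2 passed in the intermediate alone.

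With BMP4, Nog, a secreted inhibitor of BMP ligands, was the list gene that rose in each population at day 1, by 2.32 ± 0.30 (adjusted p = 0.00016), 1.86 ± 0.30 (adjusted p = 0.00676) and 2.19 ± 0.30 (adjusted p = 0.00222). Etv5, a transcription factor of the FGF response, changed by -1.36 ± 0.21 (adjusted p = 0.00125) in the early population at day 1. Averaged over populations at day 1, 1 of 14 rose and 4 fell, against 3.6% and 2.7% of all genes, among them Etv4 (-0.99 ± 0.20, adjusted p = 0.0044) and Eya2 (-0.85 ± 0.23, adjusted p = 0.029). The list median there was -0.33.

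Other genes of the fibrous matrix were read from a list of 29, of which 26 were tested. On the first day in control 9, 13 and 12 of 26 rose and 1, 2 and 1 fell, beside the shares of all genes given for the signalling list. On the second day 6, 9 and 8 rose and limma called 0 lower, with 0 lower at an unadjusted p under 0.05 either. Of all genes 1.06%, 0.714% and 0.674% were called higher on the second day and 0.152%, 0.119% and 0.172% lower. Without the doubted arrays the first-day counts were 10, 11 and 9 higher and 1, 2 and 0 lower. Sparc, a collagen-binding matrix protein, rose on the first day by 3.10 ± 0.33, 3.22 ± 0.33 and 2.64 ± 0.33. Eln, the core of elastic fibres, rose on the second day by 1.27 ± 0.21, 1.86 ± 0.21 and 1.88 ± 0.21.

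With BMP4 in the early population 3 of 26 matrix genes rose at day 1 (1.53% of all genes) and limma called 0 lower (0.918%; 0 at an unadjusted p under 0.05). Those that rose were Dcn (1.54 ± 0.27, adjusted p = 0.00269), Tgfbi (0.98 ± 0.24, adjusted p = 0.0319) and Fmod (1.77 ± 0.47, adjusted p = 0.0485). Dcn and Fmod are small proteoglycans that bind collagen fibrils. At day 2, 2 rose (2.4%) and 1 fell (3.28%), the latter Comp (-1.89 ± 0.44, adjusted p = 0.0157), a protein shared by cartilage and tendon. In the intermediate and late populations limma called none of the 26 on either day. At an unadjusted p under 0.05, 5 were higher and 1 lower in the intermediate population at day 1, 0 and 2 at day 2, 2 and 2 in the late at day 1, and 0 and 0 at day 2. All genes at that unadjusted p, in either direction, numbered 1134, 686, 1144 and 712 of 15136 in the same order. Limma called none of the 26 in the 6 tests of a difference in BMP4 response between populations. In these, 0 to 6 had an unadjusted p under 0.05, beside 424 to 1614 of all 15136 genes.

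Averaged over the populations at day 1, 6 of the 26 rose and 1 fell, against 3.6% and 2.7% of all genes. The one that fell was Ogn (-1.06 ± 0.18, adjusted p = 0.00106), a small proteoglycan, and Tgfbi (0.73 ± 0.14, adjusted p = 0.00243), Lox (0.99 ± 0.24, adjusted p = 0.0154), which crosslinks collagen, and Lum (0.60 ± 0.15, adjusted p = 0.0201) were among those that rose. At day 2 Dcn rose (0.63 ± 0.16, adjusted p = 0.0386) and Eln fell (-0.49 ± 0.12, adjusted p = 0.0324), 1 of 26 each way against 1.18% and 0.727% of all genes.

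Markers of other tissues moved over the first day as well. In early control cultures the summed signal of 6 smooth muscle genes was 327 to 475 at day 0 and 8612 to 9739 at day 1. That of 14 cartilage genes was 1493 to 2746 at day 0 and 8625 to 10839 at day 1, and that of 8 endothelial genes 498 to 895 and 263 to 290. In the late population the sum of 8 skeletal muscle genes was 361 to 542 at day 0 and 8850 to 9429 at day 1. That sum also rose in the early population, from 208 to 342 at day 0 to 2982 to 3218 at day 1. The intermediate population held 209 to 211 at day 0 and 1586 to 3168 at day 1. With BMP4 in the early population at day 2 the cartilage sum was 4379 to 11267 against 18522 to 18730 in control. There 6 of 14 genes fell, against 3.28% of all genes. In the late population the sum was higher with BMP4, at 13689 to 14867 against 8951 to 9680 at day 1. At day 2 the late sums were 15568 to 17480 with BMP4 against 11267 to 15337. The early sums at day 1 and the intermediate sums on both days overlapped between BMP4 and control. At day 2 the early smooth muscle sum was 10442 to 10809 with BMP4 against 6606 to 8051 in control. The late one was 7565 to 8607 against 6898 to 7542, and the other smooth muscle sums overlapped. The sum of 7 ectoderm genes was 1023 to 1160 with BMP4 against 771 to 847 in the early population at day 1. It was lower with BMP4 in the late population on both days and overlapped elsewhere. The sum of 4 nerve and Schwann cell genes was 329 to 342 with BMP4 against 219 to 274 in the early population at day 1. It was also higher with BMP4 at day 2 in the early and intermediate populations, and overlapped elsewhere. The part of these cell types in the levels of the 10 genes was not tested.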

How the data were processed

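Total RNA of cultured CD-1 mouse limb mesenchyme was hybridised to 30 single-colour Affymetrix mouse arrays. The deposited table holds MAS5 signal intensity on a linear scale, per the submitters' processing notes. Settings of that step were not given in the sources used here. A trimmed mean of 150 was found for every deposited array, so the authors' intensity values share a common scale. No detection calls were used here.

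Signals were taken as log2(signal + 16), a scale that understates changes of dim genes. A probe set was kept when above its array's 40th percentile on at least 2 arrays, and the brightest per gene was used, chosen by its mean over all arrays. Symbols came from the platform annotation, with 34945 probe sets naming 1 gene, 932 several and 9160 none, and 34754 were matched to GRCm38.p6 genes. Tests used limma 3.58.1 in R 4.3.3 on 15136 genes in 1 fit of 15 group means without a replicate block, with a mean-variance trend, two-sided, and Benjamini-Hochberg adjustment within each of 26 comparisons at 0.05. P-values measure the spread between the replicate arrays. Comparisons within a population and day step share control arrays. Likeness of genes was Pearson's r over the 15 group means, with the 3 nearest genes found for each member, and list genes were named by the 4 smallest adjusted p. The procedure was tested on simulated data. The members, lists and tests were chosen with earlier results of these data known.

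Alternatives were pseudocounts of 1 and 64, no filter, median centring, quantile normalization, the mean of probe sets, a replicate block, the 3 doubted day 0 arrays left out, only the arrays compared, and each array left out in turn.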

Additional observations from a re-analysis of the deposited data

Results flagged for a closer look

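The response of Sparcl1 to BMP4 differed between the early and intermediate populations by a test of the difference itself. Early minus intermediate was -2.32 ± 0.36 (adjusted p = 0.00957) at day 1 and -2.09 ± 0.36 (adjusted p = 0.022) at day 2 in limma. The early BMP4 arrays lay below their controls, 2 of 2 on each day, and the intermediate BMP4 arrays above theirs, 2 of 2 on each day. The values kept their sign with each array left out, and the calls were lost without 4 of the 8 arrays at day 1 and 7 of the 8 at day 2.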

How the results depend on the processing

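No called value of a member changed sign under any alternative that was run. Of 51 called values, 29 kept their call with each array left out in turn and 22 lost it at least once. Median centring and quantile normalization kept all 51, pseudocount 64 lost 2, no filter and the mean of probe sets 3 each, leaving out the 3 doubted arrays 4, pseudocount 1 lost 6 and fitting only the arrays compared 11. Median centring moved the median of all genes by at most 0.14. The causes of these changes were not tested. Fewer arrays entered the last fit and those with an array left out.

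The replicate numbers were not taken to pair the samples, since the labels tie no batch to them and not every correlation passed 0.1: deviations of same-numbered arrays correlated from 0.0248 to 0.349 over the 18 pairs of groups compared, above 0.1 in 16, and from -0.13 to 0.35 over all 105 pairs. The fit with a replicate block kept all 51 calls and gained 10. With BMP4 the count rose from 3 to 4 in the early population at day 2 (Tnc, lower), from 2 to 3 in the intermediate at day 1 (Scx, lower), from 1 to 3 in the late at day 1 (Edil3 and Sparcl1) and from 6 to 7 in the average at day 1. The last gain was Mkx, at -0.88 (adjusted p = 0.00496 with the replicate block, limma), which was lower with BMP4 in 10 of 12 same-numbered pairs of arrays. The count rose over the second day from 4 to 5 in the intermediate population (Edil3) and from 2 to 4 in the late (Scx and Tnc), from 0 to 1 for early against late at day 1 (Tnc) and from 1 to 2 for the early minus intermediate response at day 2 (Col14a1).

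Counts of members called changed under other settings as follows. With BMP4 the early day 2 count of 3 became 5 with pseudocount 64, and 1 to 3 with an array left out. In the intermediate population at day 1 the count of 2 became 0 with only the arrays compared, and 1 to 3 with an array left out. At day 2 the count of 1 became 0 with pseudocount 1, with only the arrays compared and with any array left out. In the late population at day 1 the count of 1 became 4 with pseudocount 64, 3 with median centring, 2 with quantile normalization, 4 without the doubted arrays, 4 with only the arrays compared and 0 with any array left out. Over the second day the intermediate count of 4 became 1 with only the arrays compared and 1 to 3 with an array left out, and the late count of 2 became 4 with pseudocount 64 and 1 with any array left out. For intermediate against late at day 1 the count of 1 became 0 with pseudocount 64, no filter, the mean of probe sets, only the arrays compared or any array left out. For early against late at day 2 the count of 0 became 1 with pseudocount 64 and without the doubted arrays. For early against intermediate at day 2 the count of 1 became 0 with pseudocount 1, no filter, the mean of probe sets, only the arrays compared or any array left out, and 2 without the doubted arrays. For the early minus late response the count of 0 became 1 at day 1 with pseudocount 64, median centring or without the doubted arrays, and 1 at day 2 with the mean of probe sets or without the doubted arrays. For the early minus intermediate response the count of 1 at day 1 became 0 with pseudocount 1 or only the arrays compared, 2 with pseudocount 64 and 0 to 2 with an array left out. At day 2 it became 0 with pseudocount 1, 2 with pseudocount 64, quantile normalization or the mean of probe sets, and 0 to 1 with an array left out.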

Other observations

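Several members differed between the replicate numbers in nearly every group. Mkx was higher on replicate 1 in 14 of 15 groups, with a median gap of 0.85 log2 units and a largest of 1.75. Scx was higher on replicate 1 in 12 of 15, with a median gap of 0.24. Col12a1 was higher on replicate 1 in 2 of 15 groups, with a median of -1.03 for replicate 1 minus 2, and Tnc in 0 of 15, with a median of -0.19. The labels give no batch for the replicate numbers.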
